A study of Mus musculus with 5 samples.

Results

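Lysosomal genes were compared between 4 mouse medulloblastomas, tumours of the cerebellum, and 1 sample of P5 (postnatal day 5) mouse cerebellum. A list of 41 genes for lysosomal enzymes, their activator proteins, lysosomal membrane proteins and the transcription factor Tfeb was used, and each gene was read at its brightest probe set among those annotated with that gene alone. Of the 41 genes, 40 were measured, out of 18193 genes on the array, and Cd63 was not analysed here. All 40 passed the filter on low signals, a mean of at least 100 over the 5 arrays, as did 14109 genes in all. The labels give no genotype, treatment, age or sex for a tumour, although the series title concerns medulloblastomas of mice mutant for the chemokine receptor gene Cxcr6 and a Smoothened inhibitor, so the only comparison made was of tumours with cerebellum. The titles of medulloblastomas 1 and 2 start with ken and those of medulloblastomas 3 and 4 and of the cerebellum with hmk, and what the prefixes stand for is not given. With 1 cerebellum array, every comparison rests on a single normal sample, the spread comes from the tumours alone, and age and tissue cannot be told apart. Nothing in the labels says whether the tumours came from separate mice, so p-values measure the spread between these arrays, and the submitters themselves consider the replicates too few for statistics. The median signal of all probe sets was 191 to 213 on the tumour arrays and 232 on the cerebellum array. Signal at the 3' end of a transcript relative to its 5' end, which rises as RNA degrades, reached its highest values in medulloblastoma 1 (1.45 for actin and 0.946 for Gapdh). The granule neuron lineage genes Atoh1 and Zic1 were bright on all 5 arrays but not equal. Atoh1 read 4178 to 9505 in the tumours and 963 in the cerebellum, and Zic1 16486 to 21638 and 24337. They belong to a list of 8 markers that had no common direction, described below.

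Lysosomes are acidic compartments in which proteins, glycans, lipids and nucleic acids brought in by endocytosis, phagocytosis and autophagy are broken down. Most of their enzymes are made in the endoplasmic reticulum, marked with mannose 6-phosphate and carried to the lysosome by receptors that recognise this mark. Loss of single enzymes causes storage diseases, many of which damage the cerebellum. Phagocytes such as microglia, the macrophages of the brain, are rich in lysosomal proteases, whereas every cell needs the basic set of hydrolases. TFEB, a factor held outside the nucleus by the kinase complex mTORC1, binds the CLEAR element in the promoters of many lysosomal genes.

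Promoters were examined for the core letters of that element. Because the element is known from lysosomal genes, a higher share among these members than among all genes is no independent result. RefSeq promoters of GRCm38.p6, from 250 bases before to 50 after a transcription start, were found for 36 of the 40 genes. The letters searched were TCACGTGA and, within or without it, CACGTG, and each is its own reverse complement, so that both strands were covered. TCACGTGA occurred in the promoters of 4 of the 36 genes (11.1%), Ctsa, Ctsd, Gla and Mcoln1, and in 1.93% of 11333 tested genes with a promoter and 0.974% of all 32851 promoters. CACGTG occurred in 12 of the 36 (33.3%), in 11.0% of the tested genes and in 7.15% of all promoters. Stretches of 120 bases upstream of the start are shown 5′ to 3′ for the 4 genes with TCACGTGA, for Lamp1, which had 4 copies of CACGTG, and for Ctss, the gene with the largest difference below, which had neither. Capitals mark TCACGTGA or, outside it, CACGTG. They lie at chr7:142387828-142387947 (minus strand), chr2:164833653-164833772 (plus), chrX:134601126-134601245 (minus, 240 to 121 bases before the start, where its 2 copies are), chr8:3500399-3500518 (plus), chr8:13159041-13159160 (plus) and chr3:95526666-95526785 (plus).
Ctsd: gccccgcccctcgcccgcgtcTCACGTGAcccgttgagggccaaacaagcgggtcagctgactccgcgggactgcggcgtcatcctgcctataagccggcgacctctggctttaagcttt
Ctsa: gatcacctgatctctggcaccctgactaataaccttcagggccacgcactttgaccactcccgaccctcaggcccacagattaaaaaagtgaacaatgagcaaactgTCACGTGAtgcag
Gla: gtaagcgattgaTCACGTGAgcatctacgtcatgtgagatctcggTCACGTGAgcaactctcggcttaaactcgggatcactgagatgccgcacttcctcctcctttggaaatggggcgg
Mcoln1: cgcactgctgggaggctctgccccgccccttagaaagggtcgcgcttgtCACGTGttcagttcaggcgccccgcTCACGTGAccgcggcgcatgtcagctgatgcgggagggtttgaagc
Lamp1: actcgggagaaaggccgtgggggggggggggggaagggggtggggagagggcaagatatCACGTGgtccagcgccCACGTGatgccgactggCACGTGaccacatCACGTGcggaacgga
Ctss: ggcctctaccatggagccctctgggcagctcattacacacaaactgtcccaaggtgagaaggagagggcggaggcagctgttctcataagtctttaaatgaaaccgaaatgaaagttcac
The second copy of TCACGTGA in Ctsa lies after the start and is not shown. A match is a run of letters and no measured binding site.

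As a whole, the lysosomal genes had no common direction. Their median difference from the cerebellum was 0.13 on the log2(signal + 32) scale used throughout, which understates changes of low signals, against -0.07 over all 14109 genes tested. Ctss rose, the only member past the threshold of 0.05 for p-values from limma after Benjamini-Hochberg adjustment over all genes tested, so that 1 of 40 members was called higher, where 0.312% of all genes were, and 0 were called lower, where 0.177% were. At an unadjusted p under 0.05 in limma, 9 members were higher and 2 lower in this fit, where 1089 and 1050 of the 14109 genes were. In all 4 tumours, 15 members lay above the cerebellum (37.5%; background 25.1%) and 11 below it (27.5%; background 30.8%). At least 2-fold above it in every tumour were 3 members, Ctss, Ctsz and Ctsd (background 2.01%), and 0 were as far below it (background 2.63%). For a single gene, the smallest p that exact permutation of these 5 arrays allows is 0.2. With arrays scaled to equal medians the all-gene median moved from -0.07 to 0.12, and 21 members then lay above and 5 below in every tumour, with a members' median of 0.32. Relative to all genes that median was 0.20 in both scalings and 0.11 after quantile normalization. Calls depended on single tumours. Without medulloblastoma 1, 6 members were called higher, where 448 genes were (3.18%), and 0 lower, where 383 were (2.71%). At an unadjusted p under 0.05 in limma, 5 members were lower in that fit, where 1702 of the 14109 genes were. Without medulloblastoma 2 or 4, 0 members were called higher, where 2 genes (0.0142%) and 0 genes were in all. In each of these fits 7 members were higher at an unadjusted p under 0.05 in limma, where 756 and 806 genes were.

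**Figure D1:**
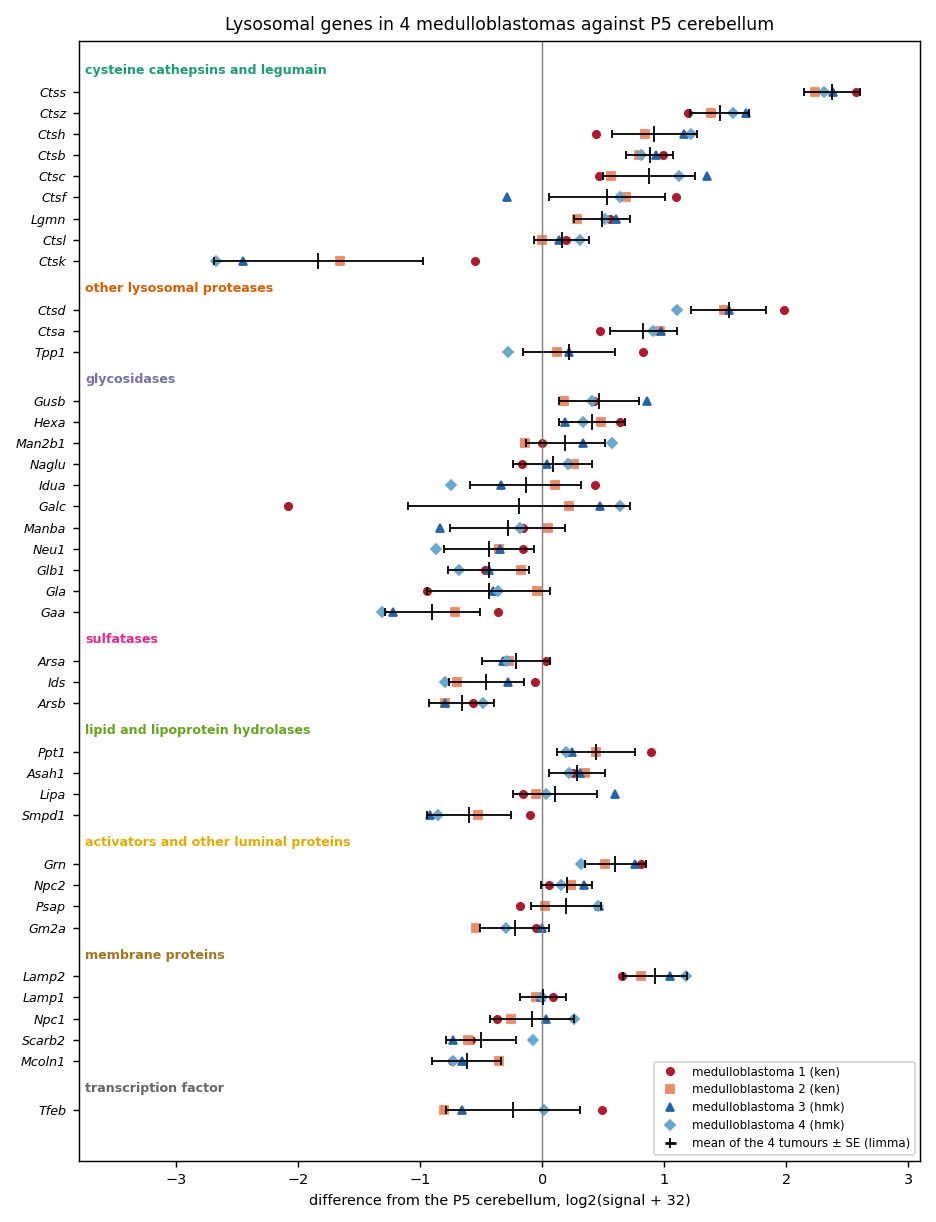
Difference of each tumour from the P5 cerebellum for 40 lysosomal genes, in log2(signal + 32), grouped by role; coloured symbols are the 4 tumours and the black bar is their mean with its standard error from limma. Cathepsin genes lie mostly to the right of 0, with Ctss furthest at 2.37, whereas the glycosidase genes lie on both sides and Ctsk lies furthest to the left at -1.83.

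The cysteine cathepsins with legumain and the other lysosomal proteases were the role groups with the highest medians, 0.87 and 0.83. The first group had 9 genes. In every tumour 6 lay above the cerebellum (66.7%, background 25.1%) and 1 below it (11.1%, background 30.8%), and 2 lay on both sides. Its medians were 0.56, 0.69, 0.93 and 0.81 in medulloblastomas 1 to 4, and those of the 3 other proteases were 0.83, 0.96, 0.97 and 0.91. The order of the groups thus turned within each tumour, as it did after quantile normalization (0.77 and 0.80). Relative to the median of all genes, the group's median was 0.94, and it was between 0.81 and 0.94 under the scalings tried.

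Ctss encodes cathepsin S, a protease of antigen-presenting cells and microglia that works at neutral as well as acidic pH. Its signal was 4431, 3494, 3891 and 3682 in medulloblastomas 1 to 4, against 718 in normal cerebellum. Every tumour lay far above the cerebellum and the tumours were close to each other. The log2 difference was 2.37 ± 0.23 (SE; limma, adjusted p = 0.0197), a ratio of 5.37 between the geometric mean of the tumours and the cerebellum. It was 2.40 for the ken tumours and 2.35 for the hmk tumours. Leaving out medulloblastoma 2 or 4 gave differences of 2.42 and 2.40 that were no longer called (limma, adjusted p = 0.0825 and 0.0670). The same held for limma without a variance trend (adjusted p = 0.0971); over all 19 alternatives the adjusted p lay between 7.72e-05 and 0.0971.

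Some markers of microglia and macrophages were higher beside Ctss and others were not. Of 20 such markers, not counting cathepsins, 14 lay above the cerebellum in every tumour (70%, background 25.1%). Below it in every tumour was 1, Cd14 (5%, background 30.8%), and 5 lay on both sides. Their median difference was 0.84. Their summed signal was 23420 to 31390 in the tumours and 10602 in the cerebellum. Bright genes weigh most in that sum, and Lyz2 alone gave 4794 to 10855 in the tumours and 755 in the cerebellum. Lyz2, C1qa, Mpeg1 and Tyrobp were called higher, 4 of the 20, where 0.312% of all genes were. Tmem119, P2ry12 and Csf1r, genes used to identify microglia, were not, with differences of -0.90 ± 0.78, 0.03 ± 0.54 and 0.27 ± 0.25 (limma, adjusted p = 0.605, 0.982 and 0.622). Csf1r still lay above the cerebellum in every tumour. So did Aif1, Trem2, C1qb, Itgam and C1qc, also not called, by 1.72, 1.68, 1.53, 1.46 and 1.32 on average. No marker was at 0 on any array, which does not show that it was present, since detection calls were not used. In bulk tissue, more cells of a type and more RNA per cell cannot be told apart. The part of these cells in any difference of a lysosomal gene was not tested.

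Ctsz, which encodes a carboxypeptidase, read 3649, 4171, 5096 and 4712 across the tumours, against 1577. Its difference was 1.45 ± 0.24 and just missed the threshold (adjusted p = 0.0571). The other probe sets of Ctsz also lay above in every tumour, by 1.11 and 1.08 on average. With arrays scaled to equal medians Ctsz was called (1.65, adjusted p = 0.0415), as it was without medulloblastoma 1 (1.54, adjusted p = 0.00566). It was not called without medulloblastoma 2, 3 or 4 (adjusted p = 0.187, 0.131 and 0.167), and over all 19 alternatives the adjusted p lay between 0.000428 and 0.187.

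Ctsb, a broad cysteine protease, read 11656, 10205, 11200 and 10290 in the tumours against 5860. The tumours spanned a narrow range, with an SD of 0.09, and all lay above the cerebellum (0.88 ± 0.19, adjusted p = 0.109). Of its 4 other probe sets, the 3 brightest lay above the cerebellum in every tumour, by 0.80, 0.81 and 0.14.

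Ctsh, an aminopeptidase, read 636, 853, 1067 and 1117 against 460 (0.92 ± 0.35, adjusted p = 0.284). Ctsc, which activates serine proteases of immune cell granules, read 960, 1030, 1796 and 1532 against 687 (0.87 ± 0.37, adjusted p = 0.324). For both genes the ken tumours were nearer the cerebellum than the hmk tumours. Lgmn, the asparagine-specific protease that processes other cathepsins, read 2392, 1981, 2473 and 2323 against 1616 (0.49 ± 0.23, adjusted p = 0.362). All 3 lay above the cerebellum in every tumour without passing the threshold.

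Ctsl and Ctsf overlapped with the cerebellum. Ctsl, a widely expressed endopeptidase, read 2922, 2543, 2818 and 3163 against 2553, a difference of 0.16 ± 0.22. Ctsf, whose loss causes a neuronal storage disease, read 979, 732, 357 and 703 against 442, and medulloblastoma 3 lay below the cerebellum. Its difference was 0.53 ± 0.48 (adjusted p = 0.617), and with its dim second probe set averaged in, it was -0.37.

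Ctsk, best known for breaking down collagen in bone, was the member furthest below. It read 244, 96.2, 41.9 and 31.2 across the tumours, against 372. The tumours were all below the cerebellum but ranged widely, with an SD of 0.96, and the hmk tumours were near the constant of 32 added before taking logs. The difference of -1.83 ± 0.85 was not called (adjusted p = 0.358). It was -1.10 for the ken and -2.57 for the hmk tumours. Markers of meninges and fibroblasts summed to between 5103 and 9259 in the tumours and to 11858 in the cerebellum, with the hmk tumours higher than the ken tumours. Without Pdgfra, the only one of these 6 that lay above the cerebellum in every tumour, they summed to between 2445 and 4257 against 10007, a sum chosen after the data were seen. Their part in the Ctsk values was not tested.

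**Figure D2:**
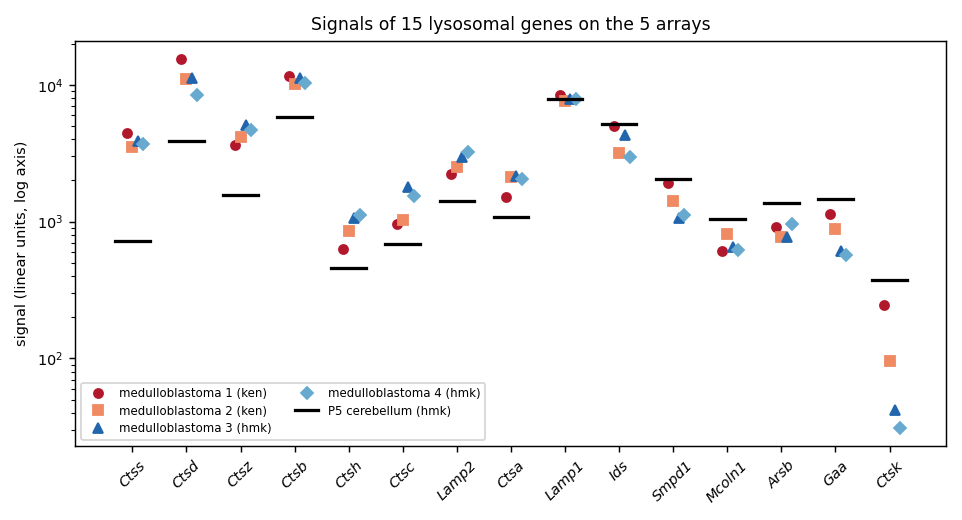
Signal of 15 lysosomal genes on each array (log axis, linear units); symbols are the 4 tumours and the black line is the P5 cerebellum. All 4 tumours are above the line for the 8 genes from Ctss to Ctsa, close to it for Lamp1, and below it for the 6 genes from Ids to Ctsk; the genes were chosen to show each pattern, and heights of different genes are not comparable.

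Among the 3 other proteases, Ctsd and Ctsa lay above the cerebellum in every tumour. Ctsd, the main aspartic protease of the lysosome, read 15416, 10995, 11268 and 8408 against 3885. Even the lowest tumour, medulloblastoma 4, was over 2-fold above the cerebellum, and the highest was medulloblastoma 1. The difference was 1.53 ± 0.30 and was not called (adjusted p = 0.0933). It was called without medulloblastoma 1 (1.38, adjusted p = 0.00971) and not without 2, 3 or 4 (adjusted p = 0.242, 0.174 and 0.110). Over all 19 alternatives the adjusted p lay between 0.00196 and 0.242, and Ctsd has a single probe set.

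Ctsa is a carboxypeptidase that also holds the galactosidase Glb1 and the sialidase Neu1 together in a complex. It read 1510, 2135, 2152 and 2050 against 1079 (0.83 ± 0.27, adjusted p = 0.238). Medulloblastoma 1 stood apart from the 3 others, which were nearly equal. A second, dimmer probe set of Ctsa was at the cerebellum's level (226, 255, 261 and 277 against 256). The partners of Ctsa lay on the other side in every tumour: Glb1 read 347, 434, 356 and 294 against 493 (-0.44 ± 0.33), and Neu1 read 430, 371, 374 and 249 against 484 (-0.43 ± 0.37). None of the 3 was called, and the difference between them was not tested.

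Tpp1, a tripeptidyl peptidase lost in a childhood storage disease of neurons, read 3455, 2098, 2248 and 1581 against 1932. The tumours lay on both sides of the cerebellum (0.22 ± 0.38, adjusted p = 0.810). Within the hmk arrays its difference was -0.03.

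The 11 glycosidases, which trim sugars from glycoproteins, glycolipids and glycosaminoglycans, had a median difference of -0.19. Of these genes 2 lay above the cerebellum in every tumour (18.2%, background 25.1%), 4 below (36.4%, background 30.8%) and 5 on both sides. These shares are near those of all genes. None was called in limma (1 lower and 0 higher at an unadjusted p under 0.05). Relative to all genes their median was -0.12, also with equal medians, where the median itself was 0.00 after rounding. With all probe sets of a gene averaged it was 0.03.

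Gaa, the glucosidase that breaks down lysosomal glycogen, was the glycosidase furthest below. It read 1129, 882, 608 and 572 against 1465, with the hmk tumours lowest. The difference was -0.90 ± 0.39 (adjusted p = 0.327), and a second probe set lay below the cerebellum in every tumour as well (-0.82). Within the hmk arrays alone, where the spread comes from a single pair of tumours, Gaa was called (-1.27, adjusted p = 0.0143), and over all 19 alternatives the adjusted p lay between 0.0143 and 0.570.

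Gusb, the glucuronidase, and Hexa, a hexosaminidase subunit whose loss stores gangliosides, lay above in every tumour. Gusb read 613, 512, 841 and 608 against 450 (0.47 ± 0.33), and Hexa read 1372, 1231, 996 and 1108 against 874 (0.41 ± 0.27). Neither passed the threshold, with adjusted p of 0.523 and 0.494.

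The lowest tumour for Galc, which cleaves galactosylceramide of myelin, was far from the others. Galc read 140 in medulloblastoma 1, 819, 979 and 1102 in medulloblastomas 2 to 4, against 697 for normal tissue. Averaged over the tumours, Galc differed by -0.19 ± 0.91, and without medulloblastoma 1 by 0.44. A dimmer probe set of Galc lay above the cerebellum in all 4 tumours, at 177, 235, 281 and 293 against 43.4 (1.87), and the dimmest lay below it (-0.63). No direction can be given for Galc.

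Gla, a galactosidase acting on globosides, read 102, 219, 163 and 169 against 227 (-0.44 ± 0.51). Its second probe set read 255, 94.0, 239 and 30.9 against 22.5 (1.53), the other sign, but its cerebellum signal and that of medulloblastoma 4 were under the constant of 32, so the size of that value has little meaning. The other glycosidases lay on both sides of the cerebellum: Manba differed by -0.28 ± 0.47, Idua by -0.14 ± 0.45, Naglu by 0.08 ± 0.32 and Man2b1 by 0.19 ± 0.32. Idua, which acts on heparan and dermatan sulfate, was highest in medulloblastoma 1 and lowest in medulloblastoma 4, at 697, 549, 394 and 288 against 507. Man2b1, a mannosidase, had the opposite split by prefix, at 978, 887, 1250 and 1473 against 982.

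All 3 sulfatases had a mean below the cerebellum, with a median of -0.46, and none was called (limma; 1 lower at an unadjusted p under 0.05). Arsb, which acts on dermatan sulfate, read 909, 770, 771 and 962 against 1361 (-0.66 ± 0.26, adjusted p = 0.303). The second probe set of Arsb differed by 0.00 on average, and the dimmest lay below in every tumour (-2.01). Ids, which acts on heparan and dermatan sulfate, read 4988, 3196, 4286 and 2985 against 5202, so that medulloblastoma 1 was near the cerebellum (-0.46 ± 0.31, adjusted p = 0.502). All 5 other probe sets of Ids had a mean below the cerebellum as well, by between -0.42 and -1.26. Arsa, which acts on myelin sulfatide, read 824, 662, 638 and 655 against 807 (-0.21 ± 0.28), with medulloblastoma 1 alone above the cerebellum.

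The lipid hydrolases and Ppt1 were divided. Smpd1, the acid sphingomyelinase, read 1905, 1408, 1060 and 1117 against 2041. It lay below in every tumour, furthest in the hmk tumours (-0.60 ± 0.34, adjusted p = 0.432), and its second probe set did so too (-0.52). Ppt1, which removes fatty acids from proteins, read 1616, 1170, 1018 and 987 against 856 (0.44 ± 0.32). Asah1, the acid ceramidase, read 1429, 1534, 1493 and 1398 against 1196, above in every tumour by 0.28 ± 0.23 and with the smallest spread of any member (SD 0.06). Lipa, the acid lipase for cholesteryl esters, read 591, 640, 1017 and 676 against 663 (0.10 ± 0.34), and its other probe sets had opposite signs (0.55 and -0.26). None of the 4 was called.

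Activator and other luminal proteins lay close to the cerebellum, with a median of 0.20 over 4 genes. Grn, which encodes progranulin, a luminal protein made by neurons and microglia, read 5569, 4524, 5365 and 3937 against 3158. All tumours lay above (0.60 ± 0.25, adjusted p = 0.314), and its other probe sets had the same sign (0.45 and 0.28). Npc2, which hands cholesterol to Npc1, read 4169, 4730, 5097 and 4471 against 4007 (0.20 ± 0.21). Psap, the precursor of the saposins that help sphingolipid hydrolases, read 6624, 7606, 10372 and 10337 against 7504. The hmk tumours of Psap lay above the cerebellum and medulloblastoma 1 below it (0.19 ± 0.29). A second bright probe set of Psap read 3425, 5937, 9448 and 8583 against 6679 and had the other sign (-0.07). Gm2a, the activator of ganglioside breakdown, read 1450, 1022, 1506 and 1219 against 1508 (-0.23 ± 0.28), from nearly equal in medulloblastoma 3 to furthest below in medulloblastoma 2.

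The 5 membrane proteins measured had a median of -0.08, and of 0.10 with equal medians. Lamp2, a coat protein of the lysosomal membrane that also serves autophagy, read 2237, 2500, 2959 and 3240 against 1412. All tumours lay above (0.92 ± 0.26, adjusted p = 0.187), as they did at each of its 3 other probe sets (0.59, 1.52 and 0.92). Lamp1, its close relative and a common measure of lysosome content, read 8384, 7587, 7821 and 7841 against 7870. That is a difference of 0.01 ± 0.19 with tumours on both sides, and it was -0.08 after quantile normalization. Lamp2 was called without medulloblastoma 1 (1.01, adjusted p = 0.0337), its adjusted p lay between 0.00593 and 0.420 over all 19 alternatives, and the difference between Lamp1 and Lamp2 was not tested.

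Mcoln1, a calcium channel of the lysosomal membrane, read 612, 809, 651 and 617 against 1043. Every tumour was below (-0.62 ± 0.28, adjusted p = 0.349), with -0.29 and -0.22 at its other probe sets. Scarb2, the receptor that carries glucocerebrosidase to lysosomes, read 2481, 2436, 2241 and 3557 against 3741 (-0.50 ± 0.29), whereas its second probe set differed by 0.10. Npc1, the cholesterol transporter, read 374, 407, 504 and 597 against 493, with the ken tumours below the cerebellum and the hmk tumours above (-0.08 ± 0.34).

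Tfeb itself was dim and varied among the tumours. It read 399, 144, 163 and 280 against 276, and its difference was -0.24 ± 0.55 (adjusted p = 0.861). Genes with the letters TCACGTGA in the promoters shown above did not share a direction: Ctsd and Ctsa lay above the cerebellum in every tumour and Mcoln1 below it, as did Gla at its brightest probe set but not at its second. The letters CACGTG were found in 3 of 12 members with a promoter that lay above in every tumour and in 4 of 11 that lay below. Ctss and Ctsz had neither in the window.

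**Figure D3:**
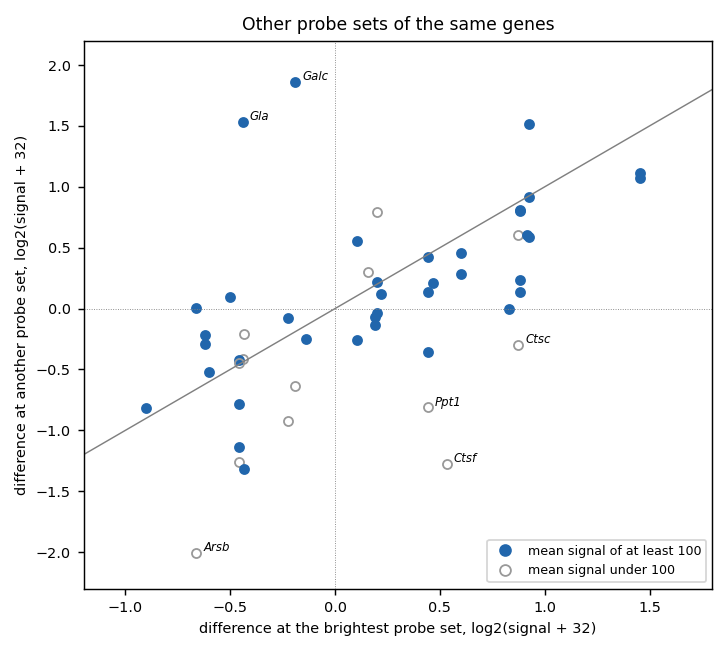
Difference from the P5 cerebellum at each other probe set of a lysosomal gene against that at its brightest probe set, both in log2(signal + 32); filled points have a mean signal of at least 100 and the line marks equality. Of 38 filled points, 28 have the same sign at both probe sets, and the points of Galc and Gla in the upper left do not.

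Probe sets were compared for the 27 members that had more than 1. The 40 genes had 91 probe sets, of which 51 were not the brightest, and 38 of these had a mean signal of at least 100. In 28 of the 38 the difference had the same sign as at the brightest probe set. Ctss and Ctsd had 1 probe set each, and Ctsz had 3 with the same direction.

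Other genes of the lysosome were described by list. Over all genes tested, 0.312% were called higher and 0.177% lower, so a short list without calls is near that share. Of 13 further enzymes tested, none was called in limma (1 lower and 0 higher at an unadjusted p under 0.05). In every tumour 5 lay above the cerebellum (38.5%, background 25.1%) and 2 below (15.4%, background 30.8%). Their median was 0.23. The acid phosphatase gene Acp5 of macrophages and osteoclasts read 84.7, 130, 188 and 424 against 38.8 (1.56 ± 0.76). Dnase2a, which degrades DNA, differed by -0.84 ± 0.32, and Sumf1, which activates sulfatases, by 0.84 ± 0.37. Of 16 further membrane proteins, none was called (1 higher and 1 lower at an unadjusted p under 0.05), with a median of -0.17, and of 0.02 with equal medians. Cd68, a membrane protein of macrophage lysosomes, read 781, 1053, 1346 and 999 against 379 (1.37 ± 0.33, adjusted p = 0.125). Tmem9 and Abca2 differed by -0.88 ± 0.31 and -0.88 ± 0.70.

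The V-ATPase, the proton pump that acidifies the lysosome, was near the cerebellum. Its 19 genes had a median of 0.03, or -0.08 after quantile normalization. None was called in limma (2 higher and 0 lower at an unadjusted p under 0.05). In every tumour 6 lay above the cerebellum (31.6%, background 25.1%) and 1 below (5.26%, background 30.8%), and 12 lay on both sides. Tcirg1, the pump subunit typical of osteoclasts and immune cells, read 559, 648, 683 and 636 against 235 (1.31 ± 0.29, adjusted p = 0.109). Its counterpart Atp6v0a1, abundant in neurons, read 2374, 1643, 1318 and 1290 against 2661 (-0.72 ± 0.35, adjusted p = 0.372). Atp6v0e lay above in every tumour, by 0.94 ± 0.28.

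Genes that sort enzymes to the lysosome numbered 15, with a median of -0.06. None passed the threshold in limma (1 higher and 2 lower at an unadjusted p under 0.05). In every tumour 3 lay above the cerebellum (20%, background 25.1%) and 7 below (46.7%, background 30.8%). The mannose 6-phosphate receptors lay on opposite sides. M6pr read 1797, 2388, 2663 and 2273 against 1180 (0.92 ± 0.27, adjusted p = 0.196), with 1.07 at its second probe set. Igf2r, the larger receptor that also clears Igf2, read 629, 438, 433 and 457 against 828 (-0.74 ± 0.32, adjusted p = 0.326). Ap1b1, of the coat that carries the receptors, differed by -0.87 ± 0.47.

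Rragd was the single gene called among 17 TFEB relatives and regulators of mTORC1 at the lysosome, where 0.312% of all genes were called higher. It encodes a GTPase that brings TFEB and its relatives to mTORC1. It rose from 324 in the cerebellum to 1174, 1114, 1058 and 1504 in the tumours, a difference of 1.79 ± 0.28 (limma, adjusted p = 0.0483). The other probe sets of Rragd were also higher in every tumour, by 0.67 and 1.13, and with all 3 averaged the difference was 1.20 and not called (adjusted p = 0.189). Leaving out medulloblastoma 2, 3 or 4 also ended the call (adjusted p = 0.164, 0.0964 and 0.117), and over its alternatives the adjusted p lay between 0.00339 and 0.189. Rraga, a partner GTPase, read 817, 1823, 1725 and 1653 against 2599 (-0.84 ± 0.42), Tsc2, an inhibitor of mTORC1, differed by -0.74 ± 0.27, and the TFEB relative Mitf by 0.60 ± 0.81. The median of the list was 0.00, with 5 genes above in every tumour (29.4%, background 25.1%) and 5 below (29.4%, background 30.8%).

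Cystatins, the inhibitors of cysteine cathepsins, lay above the cerebellum on average in all 3 genes tested. Cst7, made by activated microglia and other immune cells, read 406, 257, 293 and 483 against 28.8. Every tumour lay far above the cerebellum, whose signal was under the constant added (2.65 ± 0.45, adjusted p = 0.0609). Cst7 was called with a constant of 8 (3.28, adjusted p = 0.0426), and with a constant 4 times larger than 32 its difference was 1.61 and not called. Over all 19 alternatives its adjusted p lay between 0.0113 and 0.177. Cst3, the abundant secreted cystatin, read 9901, 8464, 10230 and 9637 against 6260 (0.60 ± 0.20, adjusted p = 0.240). Cstb, the cytosolic one, differed by 0.10 ± 0.24.

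**Figure D4:**
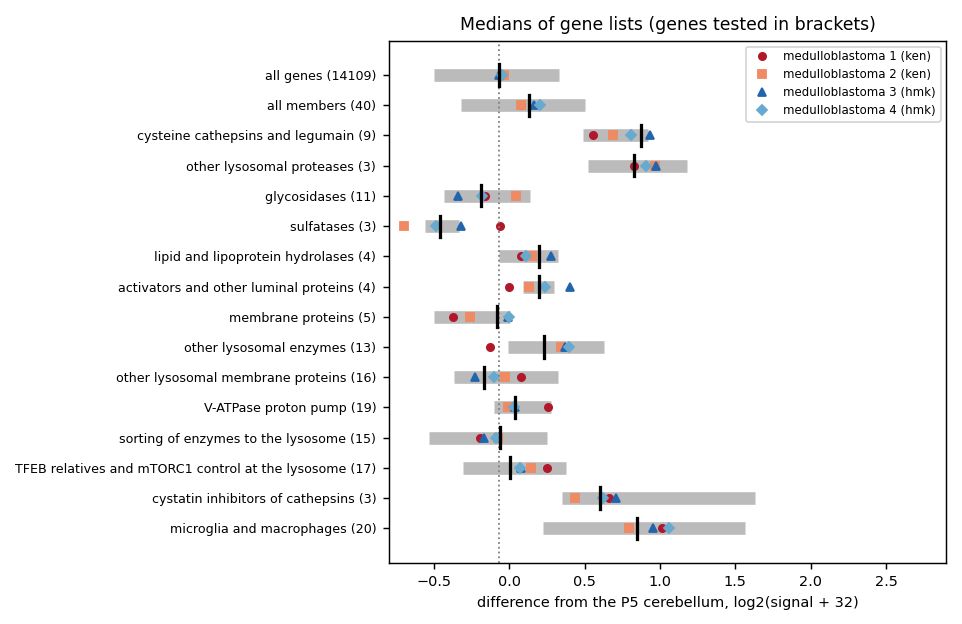
Median difference from the P5 cerebellum, in log2(signal + 32), of all genes, the lysosomal members, their role groups, further lysosome lists and microglia markers; black bars are medians over genes of the mean of 4 tumours, grey bars the middle 50% of genes, and symbols each tumour's own median. Cysteine cathepsins and other proteases lie near those of microglia markers at 0.87, 0.83 and 0.84, and most other lysosome lists lie near the dotted all-gene median of -0.07.

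The tumours differed from each other along their title prefixes in some members. In 9 members both ken tumours lay above both hmk tumours (22.5%; background 23.3%), and in 9 both lay below (22.5%; background 21.5%), so the members split by prefix about as often as all genes. The genes with both ken tumours above were Ctsf, Ctsk, Hexa, Gaa, Manba, Idua, Arsa, Smpd1 and Ppt1. Those with both ken tumours below were Ctsc, Ctsh, Ctsz, Galc, Man2b1, Lipa, Psap, Lamp2 and Npc1. The largest such differences, ken minus hmk, were -1.49 for Galc, 1.46 for Ctsk and 0.82 for Idua. Markers of Purkinje cells split the same way as the first set in all 5 genes tested, with summed signals of 27356 and 15443 in the ken tumours, 5913 and 8602 in the hmk tumours and 37635 in the cerebellum. Markers of mature neurons had both ken tumours above in 7 of 8 genes, oligodendrocyte markers in 4 of 7 and astrocyte markers in 4 of 8. Both ken tumours were below in 6 of 6 markers of meninges and fibroblasts and in 9 of 20 of microglia, where they were above in 0. The part of any marker list in the lysosomal genes was not tested.

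**Figure D5:**
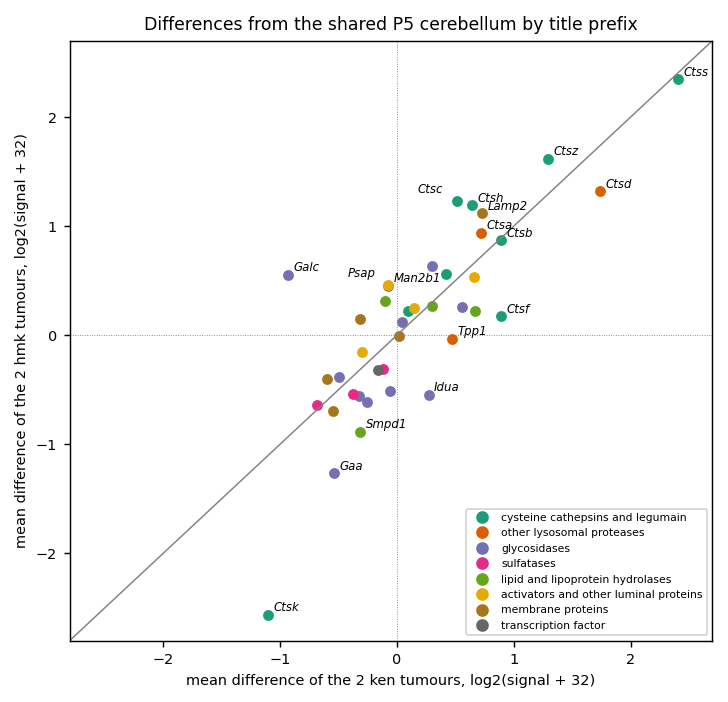
Mean difference from the P5 cerebellum of the 2 ken tumours (x axis) and the 2 hmk tumours (y axis) for 40 lysosomal genes, in log2(signal + 32), coloured by role; the line marks equality and both axes share the same cerebellum array. Ctss lies on the line at 2.40 and 2.35, whereas Galc, Ctsk and Idua lie furthest from it.

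Within the hmk arrays alone, 8 members were called higher (Ctsa, Ctsb, Ctsc, Ctsd, Ctsh, Ctss, Ctsz and Lamp2) and 2 lower (Gaa and Smpd1), where 837 and 841 genes were called in all (5.93% and 5.96%). The spread in that fit comes from medulloblastomas 3 and 4 alone. The ken tumours against the same cerebellum gave Ctss as the only member called, where 0.149% of all genes were called higher. A fit of all 5 arrays with the prefix as a term gave the same differences as the hmk arrays alone, because the only cerebellum is hmk. It is no separate estimate, and the ken tumours add only to its spread. In it Ctss, Ctsz, Ctsd and Lamp2 were called higher, where 179 genes were (1.27%), and none lower, where 182 were (1.29%). At an unadjusted p under 0.05 in limma, 3 members were lower, where 1721 genes were.

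Markers of other cell types lay on both sides of the cerebellum. Over all genes tested, 25.1% lay above and 30.8% below it in every tumour, and 0.312% were called higher and 0.177% lower. Among 8 genes of granule neuron precursors, 3 lay above in every tumour (37.5%) and 3 below (37.5%). Those above were Atoh1, which was called (2.81 ± 0.40), Mycn (1.01) and Barhl1 (0.97). Those below were Pax6 (-1.02), Neurod1 (-0.81) and Zic1 (-0.40). Among 8 genes of mature neurons, 4 lay above in every tumour (50%) and 2, Nefl and Nefm, below (25%). Those above were Gabra6, Cbln3 (3.11), Snap25 (1.20) and Rbfox3 (0.27). Gabra6, a receptor subunit of mature granule neurons, rose from 164 to between 1664 and 6856 (3.99 ± 0.63, limma, adjusted p = 0.0468). Among 7 oligodendrocyte genes, 2 lay above in every tumour (28.6%), Mobp and Mog (0.57), and 2 below (28.6%). The myelin gene Mobp rose from 85.1 to between 905 and 3231 (3.71 ± 0.58, limma, adjusted p = 0.0468). All 5 Purkinje cell genes had a mean below the cerebellum, 4 of them in every tumour. Astrocyte and Bergmann glia markers summed to between 21424 and 24453 on the tumour arrays against 67617, to which Fabp7 alone gave 27942. Of these 8 genes, 6 lay below in every tumour and 1, Slc1a2, above (0.71 ± 0.38). Aldh1l1 (-2.64 ± 0.28) and Aqp4 (-2.09 ± 0.27) were called lower (limma, adjusted p = 0.0197 and 0.0262). So was Col3a1, 1 of 6 markers of meninges and fibroblasts (-2.40 ± 0.30, limma, adjusted p = 0.0254). Endothelial markers summed to between 1787 and 2371 against 5313, and all 6 lay below in every tumour. The part of these lists in the lysosomal genes was not tested.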

How the data were processed

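RNA of 4 medulloblastomas and 1 P5 cerebellum was measured on Affymetrix arrays. The deposited intensities are linear values, 1 for each probe set, made with MAS5 per the submitters' processing notes for every array but medulloblastoma 3, whose tool is not given in the sources used here; each array's mean without 2% of probe sets at each end was 500.002. Detection calls were not used here. Trizol is named for RNA extraction, per the labels, for every sample except medulloblastoma 4, whose entry gives only the manufacturer's procedure. Arrays were numbered in record order.

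Of 45101 probe sets, 34945 had 1 symbol in the platform annotation, 932 several and 64 were controls. Of the named ones, 34741 matched RefSeq gene IDs. The brightest probe set per gene was used, and 14109 of 18193 genes with a mean of at least 100 were tested on log2(signal + 32) with limma 3.58.1 in R 4.3.3 (lmFit, eBayes with a variance trend, 3 residual and 5.02 prior degrees of freedom), two-sided, Benjamini-Hochberg over all genes tested, threshold 0.05; ± is the standard error. The fit was tested on simulated data. The number of arrays limits the precision. Members and lists were chosen with earlier results of these data known, so lists are described by counts and medians without a test. All members were named, with the called genes and up to 3 further genes of largest absolute difference of each pathway list; marker genes, such as Cd14, were named after their values were seen. Alternatives were 3 scalings, 2 constants and a floor, 2 filters, 2 choices of probe set, eBayes without a trend, a threshold of 0.10, the title prefix in 3 ways and each tumour left out.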

Additional observations from a re-analysis of the deposited data

Results flagged for a closer look

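In 3 of the 40 members, medulloblastoma 1 lay far from the 3 other tumours: its gap to the nearest tumour, as a share of the range of the 4 on the log2 scale, was 0.863 for Ctsa, 0.848 for Galc and 0.858 for Arsa, above Dixon's 95% critical value for groups of 4. Ctsa and Galc were lowest and Arsa was highest in that tumour. Chance flags about 1 in 20 groups, which for 40 members is near the number seen. That rate is for any of the 4 tumours, so it does not cover all 3 flags falling on the same array. The 3' to 5' ratios were highest on the same array, and their part in these values was not tested.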

How the results depend on the processing

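Over 19 alternatives, 29 of 40 members kept the direction of their difference in every alternative run. The others were not called in any of them, and their differences with the other sign were as follows; the cause was not tested. With all probe sets averaged they were -0.37 for Ctsf, 0.23 for Gla, 0.35 for Galc and -0.033 for Ppt1. Within the hmk arrays, and equally with the prefix as a term, they were -0.034 for Tpp1, 0.55 for Galc, -0.0071 for Lamp1 and 0.15 for Npc1. For the ken tumours against the cerebellum they were -0.074 for Man2b1, 0.27 for Idua, -0.10 for Lipa and -0.080 for Psap. With equal medians they were 0.047 for Idua and 0.10 for Npc1, and with quantile normalization -0.081 for Lamp1. Leaving out single tumours gave differences of -0.46 to 0.44 for Galc, -0.33 to 0.068 for Idua, -0.059 to 0.19 for Lipa, -0.022 to 0.026 for Lamp1 and -0.20 to 0.011 for Npc1. The sign turned without medulloblastoma 1 for Galc, Lamp1 and Npc1, without 3 for Lipa and without 4 for Idua.

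Genes called higher and lower numbered 44 and 25. They numbered 78 and 20 with equal medians, 14 and 12 without a filter, 11 and 5 with all probe sets averaged, 0 and 0 without a variance trend (908 and 1099 at an unadjusted p under 0.05), 98 and 65 at an adjusted p under 0.10, 837 and 841 within the hmk arrays, 179 and 182 with the prefix as a term, 21 and 16 for the ken tumours, and with the larger constant the lower ones numbered 45. Without single tumours they ranged from 0 to 448 and from 0 to 383. Members called higher numbered 2 with equal medians, 0 without a variance trend, 3 at 0.10, 8 within the hmk arrays, 4 with the prefix as a term, and 0 to 6 without single tumours; 2 were lower within the hmk arrays. With equal medians 5 members were below in every tumour. The members' median was 0.32 with equal medians, 0.20 within the hmk arrays and with the prefix as a term, and 0.031 for the ken tumours. No paired analysis was possible because there is 1 cerebellum.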
